A study of Mus musculus with 30 samples.

Results

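Genes of the G2/M transition and of mitosis were followed in cultures of mouse telencephalon, the embryonic forebrain, that lacked Xbp1 or carried it and that were given BDNF or left basal. The set held 36 genes chosen by function: the CDK1 engine of mitotic entry, the mitotic kinases, and the spindle checkpoint and kinetochore. It also held the ubiquitin machinery of anaphase with a substrate, spindle motors and the proteins of cytokinesis. Each gene was read from its brightest probe set with a single symbol, and its value is the log2 of the signal divided by the median signal of that array. Of the 36 genes, 34 were measured and 32 were tested, out of 12394 genes measured and 7436 tested. Ccnb1 and Cdca8 had no such probe set. Cdc25c and Nek2 lay below the filter that kept the upper 60% of genes, whose lowest kept gene had a mean log2 signal of -0.40.

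The 6 groups had 5 dishes each. Xbp1-/- (KO) and Xbp1+/+ (WT) embryos from crosses of heterozygous parents were taken at embryonic day 12.5, and the telencephalon cells of 6 KO embryos and of 4 WT embryos were pooled by genotype and divided over 15 dishes per genotype. Dishes were kept in serum-free medium without BDNF (basal) or received BDNF at 100 ng/ml on day 3 in vitro. RNA was taken on day 4 from basal and 24 h dishes and on day 5 from 48 h dishes, so at 48 h the BDNF treatment and the age of the culture cannot be told apart. XBP1 is a transcription factor activated by endoplasmic reticulum stress, and BDNF is a secreted growth factor of neurons whose receptor is TrkB. Each genotype is 1 pool of embryos from 2 litters, so p-values measure the spread between dishes of that pool and not between animals.

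Entry into mitosis is driven by CDK1 bound to A-type and B-type cyclins, and Aurora and Polo kinases then build the spindle. The spindle checkpoint holds the anaphase-promoting complex (APC/C) inactive until every kinetochore is attached, after which CDC20-bound APC/C destroys cyclin B and securin. Most of these genes are transcribed in late cycle, under the DREAM and MuvB complexes, NF-Y and FOXM1, through a CHR element (TTTGAA) and CCAAT boxes near the start of transcription. In the embryonic telencephalon the dividing cells are radial glia and intermediate progenitors, whereas neurons have left the cycle. In a bulk culture, fewer dividing cells and less of these transcripts per dividing cell cannot be told apart.

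The promoters are shown because the members share these elements, which the choice of genes did not use. RefSeq promoter windows of the mouse build GRCm38.p6, from 250 bases before to 50 bases after the start, were found for 29 of the 36 genes (31 windows). TTTGAA on either strand was present in 23 of the 31 windows (74.2%), against 17.9% of all 32851 windows of the same length. CCAAT on either strand was present in 27 of the 31 windows (87.1%), against 37.4% of all windows, and both motifs together in 22 windows (71%), against 6.95%. The E2F cores TTCCCGC and TTGGCGC were present in 5 windows (16.1%), against 6.81%. ATTGG, the reverse complement of CCAAT, can share its TTGG with TTGGCGC. Of the 17 genes with a window that fell in WT dishes at 48 h (below), 14 held TTTGAA and 14 held CCAAT. Of the other 12 genes with a window, 7 held TTTGAA and 11 held CCAAT. These 12 include Ccnb1, Cdca8 and Nek2, which were not among the tested genes, so they are not a group of genes that did not fall. A match is a description of the letters and not a measured binding site. The 120 bases upstream of the start are given 5′ to 3′ for 6 members with both motifs and for Nusap1, which had neither in its window although its signal fell in KO dishes at 24 h and in WT dishes at both times. Capitals mark TTTGAA and CCAAT or their reverse complements TTCAAA and ATTGG.
Cdk1 (chr10:69352913-69353032, minus strand): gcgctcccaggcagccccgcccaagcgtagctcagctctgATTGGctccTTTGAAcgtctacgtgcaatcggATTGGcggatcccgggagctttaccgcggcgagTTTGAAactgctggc
Cdc20 (chr4:118437344-118437463, minus strand): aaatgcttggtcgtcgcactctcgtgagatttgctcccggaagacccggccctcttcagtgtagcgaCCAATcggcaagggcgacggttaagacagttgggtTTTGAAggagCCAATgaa
Top2a (chr11:99024190-99024309, minus strand): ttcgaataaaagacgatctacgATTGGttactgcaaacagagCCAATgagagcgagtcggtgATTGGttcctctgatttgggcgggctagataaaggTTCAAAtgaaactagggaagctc
Kif22 (chr7:127042421-127042540, minus strand): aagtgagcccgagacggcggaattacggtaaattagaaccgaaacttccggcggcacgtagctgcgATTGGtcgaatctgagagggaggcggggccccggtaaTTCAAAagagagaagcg
Prc1 (chr7:80294356-80294475, plus strand): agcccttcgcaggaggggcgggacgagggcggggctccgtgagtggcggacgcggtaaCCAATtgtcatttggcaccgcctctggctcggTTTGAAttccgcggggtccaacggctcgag
Ube2c (chr2:164769809-164769928, plus strand): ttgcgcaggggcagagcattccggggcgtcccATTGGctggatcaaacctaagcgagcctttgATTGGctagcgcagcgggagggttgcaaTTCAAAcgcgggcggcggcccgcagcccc
Nusap1 (chr2:119618178-119618297, plus strand): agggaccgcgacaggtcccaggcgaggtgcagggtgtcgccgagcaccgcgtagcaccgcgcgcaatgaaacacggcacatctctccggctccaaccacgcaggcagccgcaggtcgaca

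Cdk1 carried 2 copies of TTTGAA in this stretch and Cdc20 carried TTTGAA 18 bases before the start. In Top2a, Kif22 and Ube2c the element was read on the opposite strand, 23, 17 and 29 bases before the start. Plk1, another member that fell in WT dishes, had TTTGAA 30 bases after the start and CCAAT 14 bases before it, so its TTTGAA lies outside a stretch upstream of the start.

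The arrays had median signals of 81.9 to 138 intensity units, highest on average at 48 h (122 ± 11.5 in KO and 119 ± 8.35 in WT dishes, SD, n = 5 each), and the number of arrays limits the precision. The ratio of the 3' to the 5' probe set of Gapdh, which follows RNA integrity, was 2.73 ± 0.10, 2.80 ± 0.19 and 2.39 ± 0.21 in KO dishes (basal, 24 h and 48 h) and 2.86 ± 0.10, 2.83 ± 0.15 and 2.47 ± 0.09 in WT dishes, so it was lower at 48 h in both genotypes. Xbp1 transcript was still read in KO dishes: its probe set had 4.53, 4.65, 4.68, 4.70 and 4.70 in KO basal dishes, against 4.37, 4.47, 4.44, 4.46 and 4.40 in WT basal dishes, a log2 difference of 0.22 ± 0.06 (SE, adjusted p = 0.00498). Since the deleted stretch is not stated in the labels, this probe set does not check the genotype. Markers of neurons, of radial glia, of vascular and mesenchymal cells and of erythroid cells were all detected: the log2 of the summed marker signals lay between 8.19 and 8.62, 6.97 and 7.65, 6.63 and 8.12, and 4.39 and 6.53 over all 30 dishes.

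In each WT group 1 dish was high for the median over the set, though not for every gene. These 3 WT dishes, called those that stood apart below, bear on most of the results. For each dish, the median over the 32 tested genes of the difference from the WT basal mean was taken. In KO dishes it was -0.37, -0.37, -0.25, -0.23 and -0.17 (basal), -0.67, -0.46, -0.36, -0.56 and -0.51 (24 h), and -0.44, -0.35, -0.44, -0.15 and -0.35 (48 h). In WT dishes it was -0.15, -0.12, 0.01, 0.37 and -0.08 (basal), -0.39, 0.09, -0.32, -0.47 and -0.41 (24 h), and -0.17, -0.52, -0.45, -0.48 and -0.45 (48 h). WT basal dish 4, 24 h dish 2 and 48 h dish 1 were thus the highest of their groups. So was KO 48 h dish 4 (-0.15, next -0.35), which was not left out with the 3 WT dishes. By Dixon's test (below) only WT 24 h dish 2 and WT 48 h dish 1 were marked for this median. On average the set was lowest in KO dishes at 24 h, and the KO 48 h dishes overlapped with both the KO basal and the KO 24 h dishes.

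**Figure D1:**
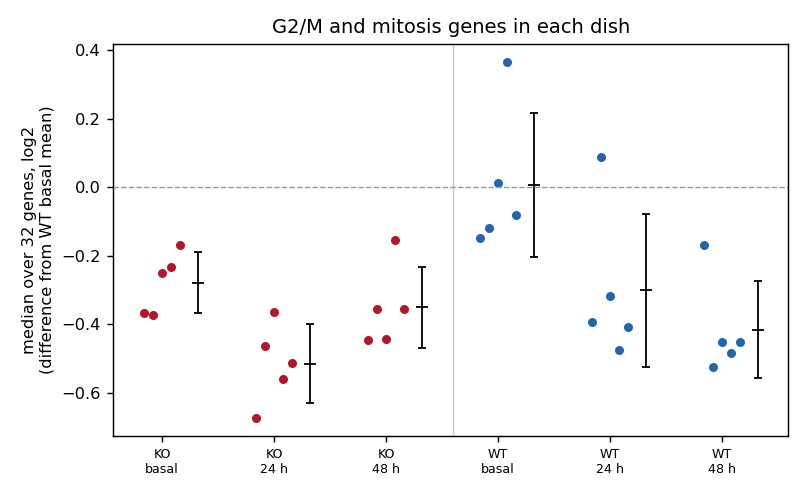
Median over the 32 tested G2/M and mitosis genes of the log2 difference from the WT basal mean, for each of the 30 dishes. Points are dishes in replicate order, with group mean and SD beside them. WT basal dish 4 (0.37), WT 24 h dish 2 (0.09) and WT 48 h dish 1 (-0.17) lie above the rest of their groups. So does KO 48 h dish 4 (-0.15).

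After 48 h of BDNF, genes of every functional group of the set were lower in WT dishes than in WT basal dishes. Of the 32 genes tested, 22 fell and none rose, where 15.7% of all genes tested fell and 20.5% rose (limma, adjusted p below 0.05). The median difference of the 32 genes was -0.39, against 0.02 over all genes, and each of the 32 estimates was below 0. In 7 genes the 48 h and basal dishes did not overlap, a pattern shown by 8.71% of all genes in the lower direction. Both the 24 h and the 48 h comparisons below use the same 5 basal dishes of each genotype.

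All 5 tested genes of the CDK1 engine fell at 48 h in WT dishes. Cdk1, the kinase that starts mitosis, had 2.39, 1.99, 1.99, 1.91 and 2.17 in WT 48 h dishes, against 2.28, 2.58, 2.67, 2.93 and 2.63 in WT basal dishes. Only 48 h dish 1 reached the basal range, and Cdk1 fell by 30.5% (log2 difference -0.53 ± 0.13 SE, adjusted p = 0.00144). Foxm1, the transcription factor of late-cycle genes, had 0.89, 1.0, 0.32, 0.53 and 0.24 in WT 48 h dishes, against 1.32, 1.28, 1.04, 0.96 and 0.97 in WT basal dishes. Dish 2 at 48 h lay within the basal range, and the log2 difference was -0.52 ± 0.16 (adjusted p = 0.0141). Ccnb2, a B-type cyclin, averaged 0.64 ± 0.18 in WT 48 h dishes and 1.09 ± 0.28 in WT basal dishes (SD, n = 5 each, difference -0.45). The phosphatase gene Cdc25b, whose product removes the inhibitory phosphates of CDK1, differed by -0.38, and Ccna2, the cyclin of S phase and G2, by -0.30. The dim Cdc25c, which was not tested, averaged -0.65 ± 0.09 in WT 48 h dishes and -0.04 ± 0.17 in WT basal dishes.

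Among the mitotic kinases and the chromosomal passenger complex, Plk1, Aurkb, Birc5 and Incenp fell and Aurka did not pass. Plk1, the Polo kinase of mitotic entry and centrosome maturation, had 0.87, 0.39, 0.42, 0.49 and 0.28 in WT 48 h dishes, against 1.07, 1.09, 1.01, 1.15 and 1.01 in WT basal dishes. Every 48 h dish was below every basal dish, and Plk1 fell by 32.9% (log2 difference -0.58 ± 0.11 SE, adjusted p = 0.000217). Aurkb, the kinase of the passenger complex, had a difference of -0.46, its scaffold Incenp of -0.34 and its subunit Birc5 (survivin) of -0.38. Aurka, the spindle-pole kinase, differed by -0.35 ± 0.15 (SE, adjusted p = 0.0631). Nek2, the kinase of centrosome separation, lay below the filter and averaged -1.10 ± 0.35 in WT 48 h dishes and -0.50 ± 0.39 in WT basal dishes. Incenp has a dimmer probe set that differed by only -0.07 (adjusted p = 0.71), so its probe sets disagree, and when the probe sets of each gene were averaged its WT call at 48 h and its basal difference between genotypes (below) were lost.

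The 3 genes grouped with the APC/C, which are 2 of its machinery and 1 of its substrates, all fell. Cdc20, the activator of the APC/C, had 3.42, 2.86, 3.10, 3.05 and 3.00 in WT 48 h dishes, against 3.58, 3.42, 3.62, 3.95 and 3.57 in WT basal dishes. Dish 1 at 48 h came to within rounding of the lowest basal dish without overlapping it, and Cdc20 fell by 31.4% (log2 difference -0.54 ± 0.11 SE, adjusted p = 0.000309). Its dimmer probe set differed by -0.67 (adjusted p = 0.00134), yet the call was lost when the 61 member probe sets were averaged by gene (-0.43). Cdca3, an APC/C substrate that promotes mitotic entry, had 1.21, 0.70, 0.58, 0.81 and 0.56 in WT 48 h dishes, against 1.07, 1.28, 1.32, 1.78 and 1.19 in WT basal dishes, a difference of -0.55 ± 0.14 (SE, adjusted p = 0.00228). Here 48 h dish 1 lay inside the basal range and the other 4 below it. Ube2c, the ubiquitin-conjugating enzyme of the APC/C, differed by -0.41.

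In the spindle checkpoint and kinetochore group only Bub1b and Cenpa passed among 6 genes. Bub1b, the checkpoint protein BUBR1, had 1.42, 1.02, 0.87, 1.33 and 1.31 in WT 48 h dishes, against 1.55, 1.52, 1.76, 2.06 and 1.68 in WT basal dishes. The ranges did not overlap, and the log2 difference was -0.52 ± 0.14 (SE, adjusted p = 0.00348). Cenpa, the histone of centromeres, differed by -0.34 (adjusted p = 0.0422). The checkpoint genes Bub1, Mad2l1 and Ttk and the kinetochore motor Cenpe had differences between -0.34 and -0.11 that did not pass.

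Of the 7 spindle motors and spindle proteins, 6 fell. Kif4, a chromokinesin, had 0.49, 0.33, 0.35, 0.23 and 0.33 in WT 48 h dishes, against 1.08, 0.97, 0.93, 1.08 and 0.66 in WT basal dishes. No 48 h dish reached the lowest basal dish, and Kif4 fell by 33.9% (log2 difference -0.60 ± 0.12 SE, adjusted p = 0.000336). Nusap1, a microtubule-binding spindle protein, had 2.37, 1.94, 1.99, 2.01 and 2.08 in WT 48 h dishes, against 2.46, 2.47, 2.44, 3.03 and 2.5 in WT basal dishes (difference -0.50, adjusted p = 0.000683). Kif22, the other chromokinesin, had 3.68, 3.44, 3.41, 3.42 and 2.83 in WT 48 h dishes, against 3.90, 3.68, 3.77, 4.08 and 3.88 in WT basal dishes (difference -0.51, adjusted p = 0.00146). In both genes the groups did not overlap, although in Kif22 dish 1 at 48 h came to within rounding of the lowest basal dish. Hmmr, a spindle-associated hyaluronan receptor, had 1.09, 0.15, 0.51, 0.59 and 0.47 in WT 48 h dishes, against 0.68, 1.14, 1.15, 1.56 and 0.98 in WT basal dishes, with dish 1 inside the basal range (difference -0.54, adjusted p = 0.0181). The microtubule depolymerase Kif2c differed by -0.49 and Tpx2, the spindle activator of Aurora A, by -0.36, whereas Kif11, the motor that separates spindle poles, differed by -0.32 (adjusted p = 0.0876).

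In the cytokinesis group Prc1, which bundles the microtubules of the central spindle, fell (-0.40, adjusted p = 0.00455), and Kif20a, Racgap1 and Ect2 had differences of -0.31, -0.35 and -0.32 that did not pass. The dimmer Racgap1 probe set did pass (-0.61, adjusted p = 0.000354). Top2a, the topoisomerase that untangles sister chromatids, had 3.44, 3.16, 3.08, 3.16 and 2.85 in WT 48 h dishes, against 3.59, 3.46, 3.52, 4.01 and 3.47 in WT basal dishes, without overlap (difference -0.47, adjusted p = 0.000658). Mki67, the proliferation marker, had 3.38, 3.00, 3.31, 3.40 and 3.44 in WT 48 h dishes, against 3.23, 3.21, 3.40, 3.71 and 3.55 in WT basal dishes. These ranges overlapped, and the difference was -0.12 ± 0.11 (SE, adjusted p = 0.438).

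Of the 22 calls, 14 held with any single dish left out: Cdk1, Ccnb2, Plk1, Aurkb, Incenp, Cdc20, Cdca3, Bub1b, Kif4, Kif22, Kif2c, Nusap1, Prc1 and Top2a. Cdc20 and Incenp of these, and Tpx2, did not pass when probe sets were averaged by gene. The count was 15 without WT basal dish 4, 26 without WT 48 h dish 1 and 19 without the 3 WT dishes that stood apart. When the deposited values were used without division by the array median, the median of all genes moved to 0.34, that of the mitotic genes to -0.08 with 26 of 32 still below 0, and none passed; the gap between the set and all genes was -0.41 on both scales. The Gapdh 3'/5' ratio was lower in the 48 h groups, and its part in the result was not tested beyond a covariate: with that ratio as a covariate 27 genes fell, but the Foxm1 and Cdc25b calls were lost (Foxm1 -0.11, adjusted p = 0.726).

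**Figure D2:**
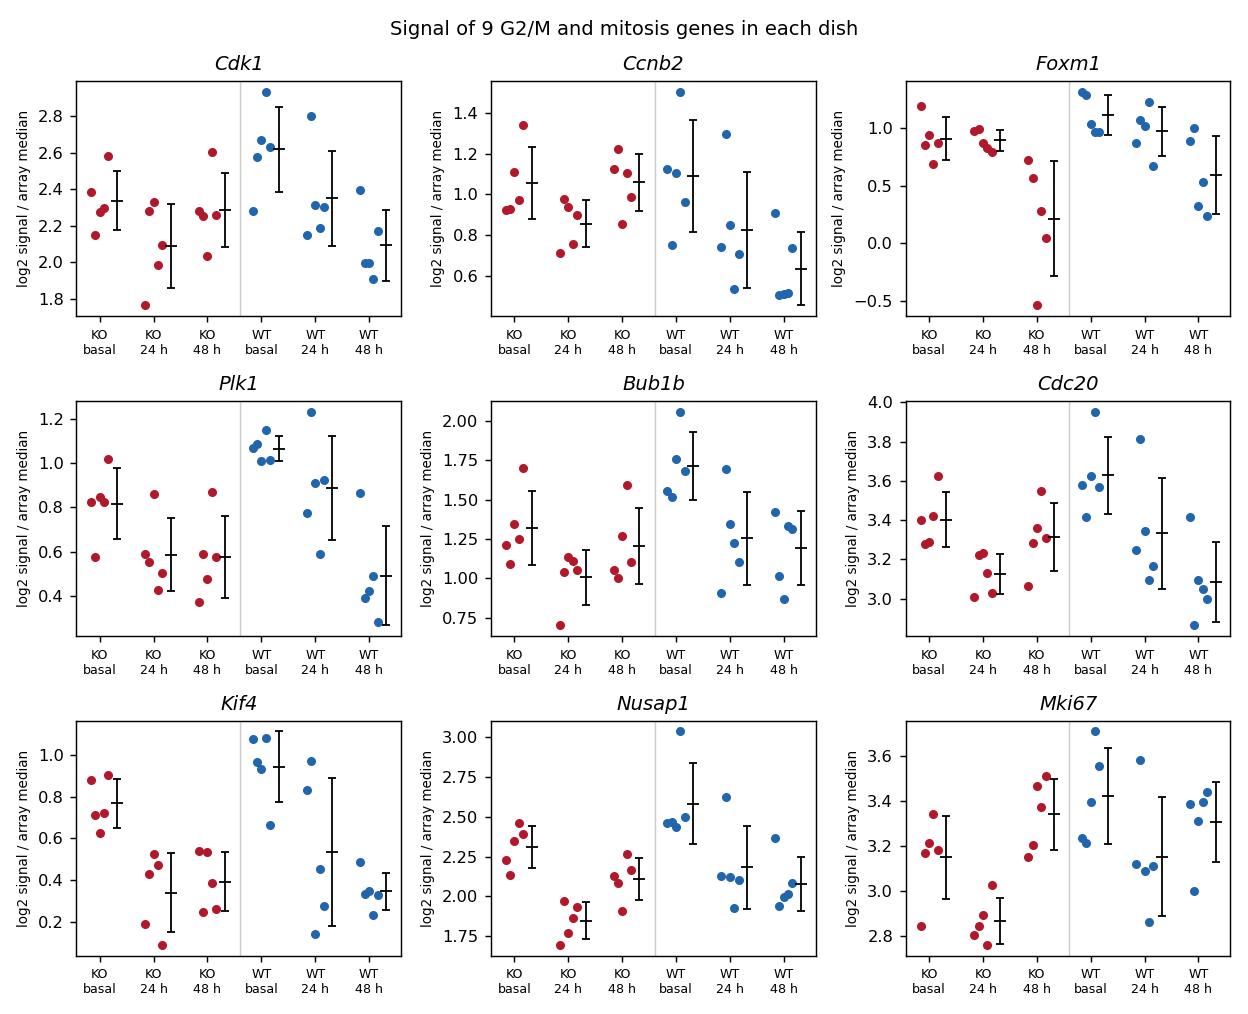
Log2 signal relative to the array median in each dish for 9 genes, with KO groups left of WT groups and basal, 24 h and 48 h in order; bars are mean and SD of 5 dishes. In WT, Plk1, Cdc20, Bub1b, Kif4 and Nusap1 at 48 h do not overlap with basal dishes, while Foxm1 is lowest in KO 48 h dishes and Mki67 lowest in KO 24 h dishes.

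In KO dishes after 48 h of BDNF, 4 of the 32 genes fell and none rose, where 9.47% of all genes fell and 19.4% rose. The share of members that fell (Foxm1, Kif4, Kif22 and Top2a) was therefore close to the background. All 4 are among the 22 that fell in WT dishes, which makes them 100% of the KO calls and 18.2% of the WT calls. The median over the 32 genes was -0.08, against 0.04 over all genes, with 22 estimates below 0. Without division by the array median this direction flipped, as the mitotic genes then had a median of 0.17 and all genes one of 0.29, a gap of -0.12 on either scale. With the Gapdh ratio in the fit the median was -0.25, against 0.01 over all genes, and the count was again 4.

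Foxm1 had 0.73, 0.57, -0.54, 0.28 and 0.04 in KO 48 h dishes, against 1.19, 0.86, 0.94, 0.69 and 0.87 in KO basal dishes. Dish 1 at 48 h reached the lowest basal dish, dish 3 was far below all others, and Foxm1 fell by 38.2% (log2 difference -0.70 ± 0.16 SE, adjusted p = 0.00176). The call held with any single dish left out and was lost with the Gapdh ratio as a covariate (-0.32, adjusted p = 0.256). A dimmer Foxm1 probe set differed by -0.52 (adjusted p = 0.331). Kif4 had 0.54, 0.25, 0.54, 0.39 and 0.26 in KO 48 h dishes, against 0.88, 0.71, 0.63, 0.72 and 0.90 in KO basal dishes. It was 1 of 2 members without overlap, where 6.12% of all genes were lower without overlap (difference -0.38 ± 0.12 SE, adjusted p = 0.0219). Kif22 averaged 3.15 ± 0.26 in KO 48 h dishes and 3.50 ± 0.06 in KO basal dishes (SD, n = 5 each, adjusted p = 0.0287), and Top2a averaged 3.00 ± 0.19 in KO 48 h and 3.31 ± 0.07 in KO basal dishes (adjusted p = 0.0242). For Kif22 and Top2a, KO 48 h dish 4 lay within the basal range. The count was 1 without KO 48 h dish 2, 2 without KO basal dish 1 and 7 (5 lower, 2 higher) without the 3 WT dishes that stood apart, which enter only through the shared spread. Among the members that did not pass, Cdk1 differed by -0.05, Ccnb2 by 0.00, Cdc20 by -0.09, Aurkb by 0.03 and Cdca3 by -0.04. The highest estimates were those of Ttk (0.33, adjusted p = 0.07) and Mad2l1 (0.31, adjusted p = 0.0607).

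The direct test of whether the 48 h change differed between genotypes gave no gene of the set at adjusted p below 0.05, where 0.134% of all genes passed in either direction. At an unadjusted p below 0.05, 15 of the 32 genes had a higher 48 h change in KO than in WT and none a lower one, against 4.51% and 2.42% of all genes. The median KO-minus-WT difference in change was 0.30, against 0.02 over all genes, and 31 of 32 estimates were above 0, against 56.4% of all genes tested. All of these estimates share the same 20 dishes, so they are not independent. With single dishes left out, their median ran from 0.20 (without WT basal dish 4) to 0.38 (without WT 48 h dish 1). Hmmr had the highest value, 0.59 (95% interval 0.07 to 1.10, adjusted p = 0.608). Cdca3 had 0.52 (interval 0.12 to 0.92) and Cdk1 0.47 (interval 0.11 to 0.83). Foxm1, the only gene below 0, had -0.18 (interval -0.65 to 0.29). The larger count of calls in WT is therefore not shown, gene by gene, to be a different response.

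After 24 h of BDNF, 6 of the 32 genes fell in KO dishes and 7 in WT dishes, and none rose in either. The background was 5.55% lower and 5.96% higher in KO dishes, and 6.4% lower and 8.04% higher in WT dishes. The median over the 32 genes was -0.24 in KO dishes (29 below 0) and -0.28 in WT dishes (32 below 0), with medians of all genes of 0.005 and 0.006. Kif2c, Kif4, Nusap1 and Incenp fell in both genotypes, 66.7% of the KO calls and 57.1% of the WT calls.

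The spindle motors led the change in KO dishes at 24 h, with 4 of 7 falling. Nusap1 had 1.70, 1.97, 1.77, 1.87 and 1.93 in KO 24 h dishes, against 2.23, 2.13, 2.35, 2.46 and 2.39 in KO basal dishes, and fell by 27.4% (log2 difference -0.46 ± 0.11 SE, adjusted p = 0.00572). Kif2c had 0.87, 0.98, 0.96, 0.55 and 0.94 in KO 24 h dishes, against 1.32, 1.06, 1.39, 1.55 and 1.22 in KO basal dishes (difference -0.45, adjusted p = 0.0212). Kif4 had 0.19, 0.43, 0.52, 0.47 and 0.09 in KO 24 h dishes, against 0.88, 0.71, 0.63, 0.72 and 0.90 in KO basal dishes (difference -0.43, adjusted p = 0.0216). In all 3 genes every 24 h dish was below every basal dish. Kif22 (-0.40), Top2a (-0.36) and Incenp (-0.25) also fell without overlap, so 6 of the 8 genes that did not overlap passed; 4.9% of all genes were lower without overlap. Nusap1 and Top2a kept their calls with any single dish left out, but these calls and those of Kif2c, Kif22 and Incenp were lost when probe sets were averaged by gene (Nusap1 -0.27, Top2a -0.18). The count was 3 without KO 24 h dish 4 and 11 without the 3 WT dishes that stood apart, which again enter only through the shared spread. Genes of the CDK1 engine did not pass in KO dishes at 24 h, where Cdk1 differed by -0.25 (adjusted p = 0.211) and Foxm1 by -0.02 (adjusted p = 0.967).

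In WT dishes at 24 h, checkpoint and spindle genes fell. Bub1, the kinetochore kinase of the spindle checkpoint, had 0.53, 1.12, 1.40, 0.44 and 0.68 in WT 24 h dishes, against 1.06, 1.0, 1.39, 2.02 and 1.18 in WT basal dishes, a difference of -0.50 ± 0.17 (SE, adjusted p = 0.0433). Bub1b had 0.90, 1.70, 1.34, 1.22 and 1.10 in WT 24 h dishes, against 1.55, 1.52, 1.76, 2.06 and 1.68 in WT basal dishes (difference -0.46, adjusted p = 0.0207). Racgap1, the GTPase-activating subunit of centralspindlin, had 0.45, 1.32, 0.75, 0.41 and 0.48 in WT 24 h dishes, against 0.72, 1.02, 1.19, 1.60 and 1.17 in WT basal dishes (difference -0.46, adjusted p = 0.0265). Dish 2 at 24 h lay within the basal range in all 3 genes, and in Bub1 and Racgap1 so did dish 3. Kif2c (-0.44), Kif4 (-0.41), Nusap1 (-0.40) and Incenp (-0.24) made up the rest, and no member was lower without overlap, where 4.17% of all genes were. None of the 7 calls held with every single dish left out. The count was 0 without WT basal dish 4, 20 without WT 24 h dish 2, 10 without the 3 dishes that stood apart, and 2 to 4 without WT 24 h dish 1, 3, 4 or 5, while the median ran from -0.38 to -0.19. With the values as deposited none passed in either genotype at 24 h, and when the probe sets of each gene were averaged the Incenp difference in WT dishes was 0.12 (adjusted p = 0.568). The difference in the 24 h change between genotypes did not pass for any member (0 at an unadjusted p below 0.05, where 2.85% of all genes were higher and 3.27% lower; 0.0941% of all genes passed after adjustment), with a median of 0.02.

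**Figure D3:**
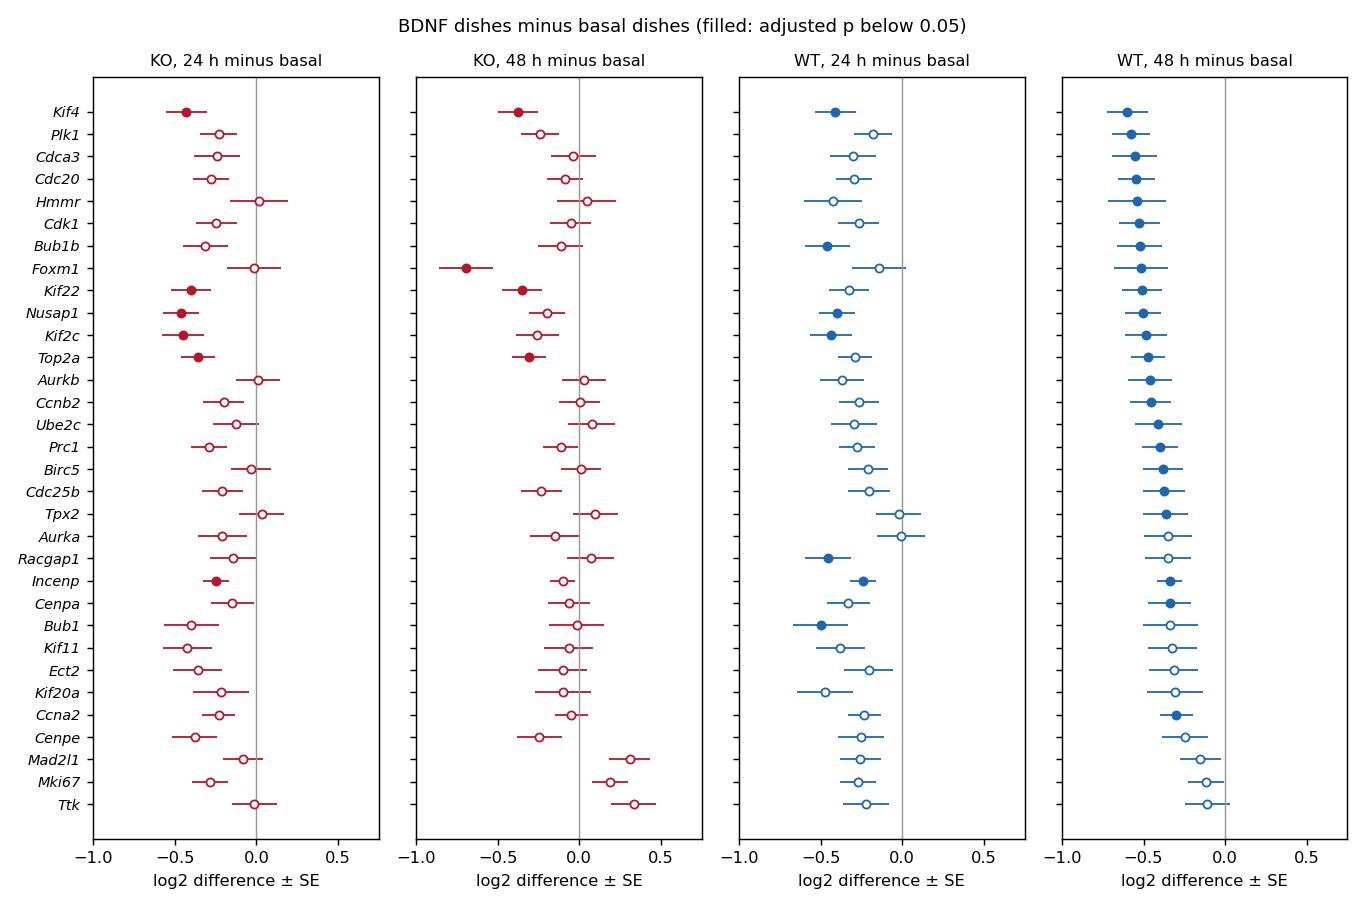
Log2 difference from basal dishes with its SE for the 32 genes after 24 h and 48 h of BDNF in KO dishes (left pair of panels) and WT dishes (right pair); filled points passed an adjusted p of 0.05. At 24 h 6 genes in KO and 7 in WT fell, and at 48 h 4 in KO and 22 in WT; without division by the array median the KO 48 h median turned from -0.08 to 0.17.

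Between 24 h and 48 h of BDNF the estimates of the 32 genes were mostly above 0 in KO dishes (median 0.18, 29 above 0) and mostly below 0 in WT dishes (median -0.11, 24 below 0), against medians of all genes of 0.05 and 0.02; without division by the array median the WT median turned to 0.20, and with the Gapdh ratio in the fit the KO median turned to -0.04. Few genes passed. In KO dishes Mki67 and Mad2l1 rose and Foxm1 fell, where 7.49% of all genes rose and 2.35% fell. Mki67 had 3.15, 3.20, 3.46, 3.37 and 3.51 in KO 48 h dishes, against 2.80, 2.84, 2.89, 2.76 and 3.02 in KO 24 h dishes, without overlap (difference 0.48 ± 0.11 SE, adjusted p = 0.00712). Mad2l1, the checkpoint protein that inhibits CDC20, had 2.57, 2.73, 2.68, 3.04 and 2.81 in KO 48 h dishes, against 2.22, 2.27, 2.54, 2.44 and 2.40 in KO 24 h dishes, also without overlap (difference 0.39 ± 0.12 SE, adjusted p = 0.0414). Foxm1 was lower in every KO 48 h dish than in any KO 24 h dish, as were 1.94% of all genes, while 6.66% were higher without overlap (-0.68 ± 0.16 SE, adjusted p = 0.00942). The Mki67 and Foxm1 calls held with any single dish left out. Adding the Gapdh ratio to the fit left none of the 3 (Mki67 0.17, adjusted p = 0.648).

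In WT dishes Plk1 was the only member to fall between 24 h and 48 h, where 5.58% of all genes fell and 8.32% rose. Its values were 0.87, 0.39, 0.42, 0.49 and 0.28 in WT 48 h dishes, against 0.78, 1.23, 0.91, 0.59 and 0.93 in WT 24 h dishes, a difference of -0.40 ± 0.11 (SE, adjusted p = 0.0188). The ranges overlapped, and no member passed without WT 24 h dish 2, WT 48 h dish 3 or WT 48 h dish 5; 2 passed without WT 24 h dish 1 and 3 without WT 48 h dish 1. Dimmer probe sets of Cdc20 and Racgap1 passed in this comparison (-0.49 and -0.43, adjusted p = 0.034 and 0.0211), whereas their brighter probe sets did not.

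Without BDNF, mitotic genes were lower in KO than in WT dishes: 10 of the 32 genes were lower and none higher, where 18.7% of all genes were lower and 9.2% higher. The median was -0.28, against -0.09 over all genes. Of the 32 estimates 31 were below 0, but most estimates of all genes were too, as only 31% of them were above 0. Aurkb had 0.63, 0.44, 0.95, 0.62 and 0.98 in KO basal dishes, against 0.95, 1.19, 1.24, 1.59 and 1.01 in WT basal dishes (difference -0.47 ± 0.13 SE, adjusted p = 0.00782). Cdca3 had 0.50, 0.85, 0.78, 1.01 and 1.14 in KO basal dishes, against 1.07, 1.28, 1.32, 1.78 and 1.19 in WT basal dishes (difference -0.47 ± 0.14 SE, adjusted p = 0.0102). Ube2c had 1.09, 1.12, 1.36, 1.49 and 1.73 in KO basal dishes, against 1.41, 1.68, 1.86, 2.39 and 1.67 in WT basal dishes (difference -0.44, adjusted p = 0.0182). In each of these 3 genes the highest KO dishes reached the lowest WT dishes.

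Incenp had 3.24, 3.32, 3.34, 3.28 and 3.47 in KO basal dishes, against 3.64, 3.59, 3.64, 3.75 and 3.56 in WT basal dishes, a difference of -0.31 ± 0.08 (SE, adjusted p = 0.0029), with every KO dish below every WT dish. Kif22 (-0.36), Prc1 (-0.35) and Top2a (-0.30) were also lower without overlap. These 4 of the 32 members were a share close to the background, as 11.9% of all genes were lower without overlap. Bub1b (-0.39), Mad2l1 (-0.35) and Ccna2 (-0.27) completed the 10. WT basal dish 4 weighed on this comparison. Without it Aurkb and Incenp alone passed and the median was -0.20. When probe sets were averaged by gene, 8 members passed, but Aurkb, Incenp, Prc1 and Top2a did not. The count was 5 without KO basal dish 1, 5 without KO basal dish 2, and 5 without the 3 WT dishes that stood apart. Without division by the array median no member passed in the genotype comparisons without BDNF and at 24 h, although 29 and 22 of the 32 estimates were below 0.

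At 24 h of BDNF, 9 of the 32 genes were lower in KO than in WT dishes and none higher, where 17.8% of all genes were lower and 8.43% higher. The median was -0.25, against -0.09 over all genes. Top2a had 2.90, 2.94, 3.06, 2.93 and 2.92 in KO 24 h dishes, against 3.10, 3.66, 3.31, 3.30 and 3.21 in WT 24 h dishes, without overlap (difference -0.37 ± 0.10 SE, adjusted p = 0.00798). It was 1 of 2 members lower without overlap, where 11.2% of all genes were. Kif22 had 2.94, 3.05, 3.37, 3.01 and 3.13 in KO 24 h dishes, against 3.69, 3.85, 3.42, 3.37 and 3.36 in WT 24 h dishes, with KO dish 3 just above the lowest WT dishes (difference -0.44 ± 0.12 SE, adjusted p = 0.00709). Incenp averaged 3.08 ± 0.10 in KO 24 h dishes and 3.40 ± 0.17 in WT 24 h dishes (SD, n = 5 each, difference -0.32, adjusted p = 0.00239). These 3 calls held with any single dish left out, and they were the only ones left without WT 24 h dish 2. Under quantile normalization 3 members passed and under scaling to the 75th percentile 4. Top2a (-0.30) and Kif22 (-0.36) did not pass under quantile normalization, and Top2a (-0.18) did not when probe sets were averaged by gene. Cdca3, Prc1, Kif2c, Nusap1, Plk1 and Ccna2 had differences between -0.41 and -0.27. The Plk1 call was lost in 31 of 42 alternatives, the replicate block among them, and the Ccna2 call in 14 of 43. Only 4 genes passed without KO 24 h dish 1 and 6 without the 3 WT dishes that stood apart. Top2a, Ccna2, Cdca3, Kif22, Prc1 and Incenp were lower both without BDNF and at 24 h, 60% and 66.7% of the calls.

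At 48 h the genotypes were close for most members. Ccnb2 passed as higher in KO dishes and no member passed as lower, where 9.68% of all genes were higher and 14.4% lower. The median was 0.04, against -0.07 over all genes, and 22 of 32 estimates were above 0. Ccnb2 had 1.13, 1.22, 0.86, 1.10 and 0.99 in KO 48 h dishes, against 0.91, 0.51, 0.51, 0.52 and 0.74 in WT 48 h dishes. WT dish 1 alone reached the KO range, and the difference was 0.43 ± 0.13 (SE, adjusted p = 0.0117), a call that held with any single dish left out. The count was 3 (1 higher, 2 lower) without WT 48 h dish 5, 2 without WT 48 h dish 1, KO 48 h dish 1 or KO 48 h dish 2, and 4, all higher, without the 3 WT dishes that stood apart. Foxm1 differed by -0.38 (95% interval -0.72 to -0.05, adjusted p = 0.0892) and Hmmr by 0.34 (interval -0.03 to 0.70). With the Gapdh ratio in the fit the median turned to -0.01. The intervals of Cdk1 (-0.06 to 0.45) and Mki67 (-0.19 to 0.26) include 0.

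**Figure D4:**
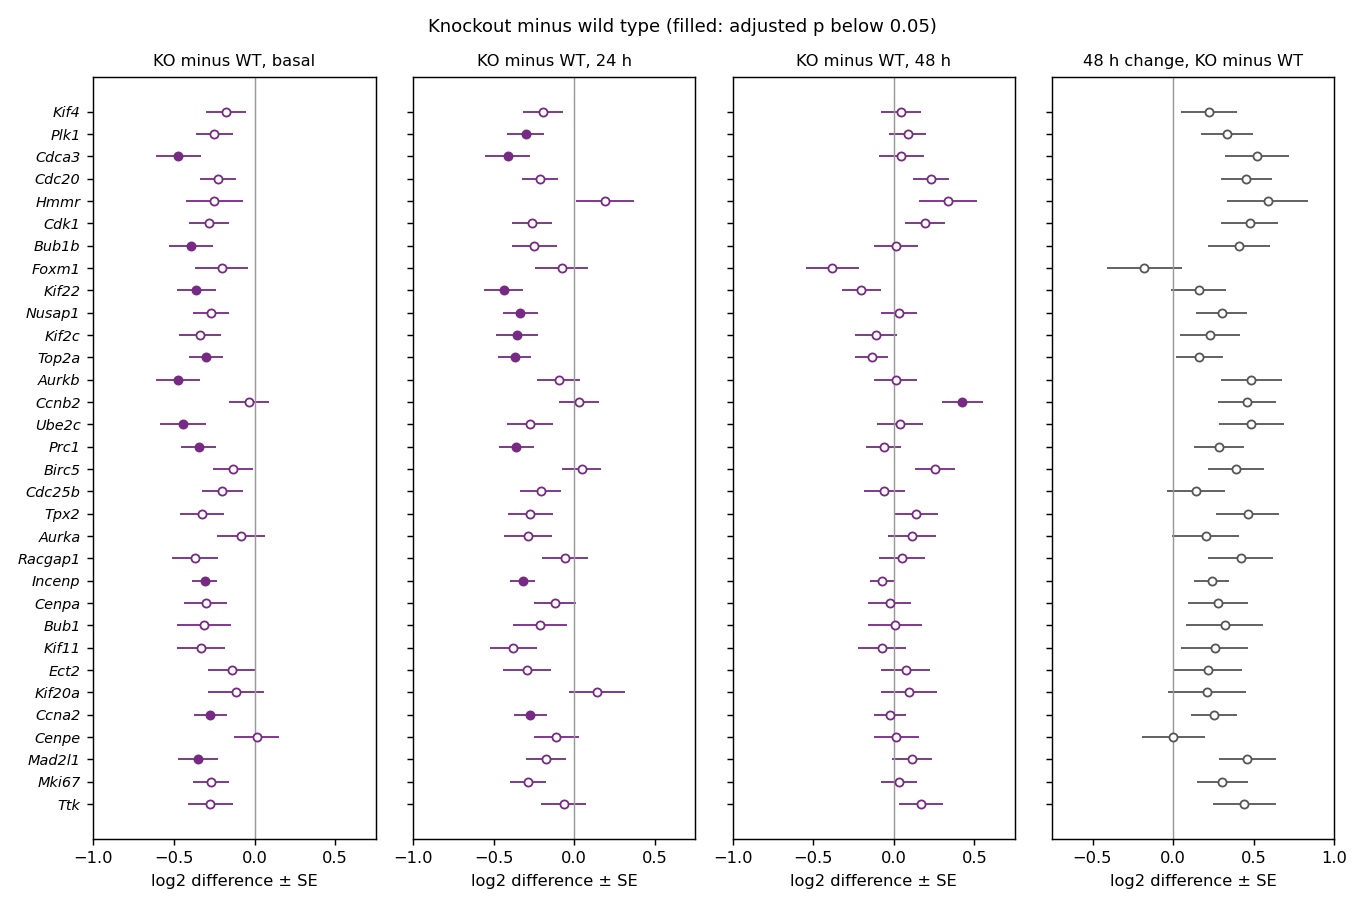
KO minus WT log2 difference with its SE for the 32 genes in basal, 24 h and 48 h dishes, and, in the right panel, KO minus WT difference of the 48 h change; filled points passed an adjusted p of 0.05. The filled points lie below 0 in basal (10) and 24 h (9) dishes, Ccnb2 alone is filled at 48 h (0.43), and no point is filled on the right.

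A second list of 63 other genes of G2 and mitosis, of which 36 were tested, gave counts near those of the 32 members. In WT dishes at 48 h, 21 fell and none rose (median -0.34), led by the centromere gene Cenpn (-0.72), the lamin gene Lmnb1 (-0.67) and the condensin gene Ncaph (-0.55, adjusted p = 2.05e-05). In KO dishes at 48 h, 3 fell and none rose (median -0.05), where 9.47% of all genes fell. At 24 h, 8 fell in KO and 10 in WT dishes, where 5.55% and 6.4% of all genes fell. Without division by the array median, 1 of the 36 fell and 2 rose in WT dishes at 48 h (median -0.03), none fell and 6 rose in KO dishes (median 0.20), and the median of the genotype difference at 24 h turned from -0.12 to 0.04. KO dishes were lower than WT dishes in 10 of the 36 genes without BDNF and 6 at 24 h, where 18.7% and 17.8% of all genes were lower. The 24 h count was close to that share. The spindle gene Psrc1 was higher in KO dishes at both (0.53 and 0.52). At 48 h Psrc1 (0.64), Anln (0.50), an actin-binding scaffold of the cleavage furrow, and Ckap2 (0.38) were higher in KO dishes. This list was written from general knowledge with earlier results of these data known, so it is a description beside the members.

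Genes of G1/S and DNA replication gave counts of the same order. Of 40 tested, 21 fell and 1 rose in WT dishes at 48 h (median -0.32), among them the replication factor Mcm10 (-0.73), the helicase subunit Mcm7 (-0.54, adjusted p = 1.05e-05) and Cdk2 (-0.65). In KO dishes at 48 h, 4 fell, with Ccnd3 (-0.52), Ccnd1 (-0.42) and the ribonucleotide reductase gene Rrm2 (-0.40) among them, and 2 rose, with the histone mRNA binder Slbp at 0.64. Of all genes, 9.47% fell and 19.4% rose in that comparison. KO dishes were lower than WT dishes in 12 of the 40 genes and higher in 3 without BDNF, lower in 11 and higher in 2 at 24 h, and lower in none and higher in 3 at 48 h, where 18.7%, 17.8% and 14.4% of all genes were lower. Without division by the array median, 1 fell and 5 rose in WT dishes at 48 h (median -0.01), none fell and 9 rose in KO dishes (median 0.20), and none was lower in KO than in WT dishes. Ccnd1, the cyclin of G1, was higher in KO dishes at all 3 times (0.88, 0.75 and 0.75).

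Of 14 tested inhibitors of the cycle, 2 rose and 3 fell in KO dishes at 48 h, and 2 rose and 4 fell in WT dishes. Of all genes, 19.4% rose and 9.47% fell in KO dishes, and 20.5% rose and 15.7% fell in WT dishes. Cdkn1b, the CDK inhibitor p27, rose in KO dishes (0.83 at 24 h and 0.60 at 48 h) and in WT dishes (0.80 and 0.94, adjusted p = 0.00423 and 0.00029). Cdkn2d, the INK4 inhibitor p19, rose at 48 h in both (0.47 in KO and 0.37 in WT dishes). Pkmyt1, the kinase that holds CDK1 inactive, fell in WT dishes at 48 h (-0.65). The antiproliferative gene Btg1 fell at 48 h in KO (-0.36) and WT dishes (-0.37), and the stress gene Gadd45b fell in KO dishes (-0.50). Between genotypes, 4, 3 and 3 of the 14 were higher and 3, 3 and 0 lower in KO dishes without BDNF, at 24 h and at 48 h. Of all genes, 9.2%, 8.43% and 9.68% were higher in these comparisons and 18.7%, 17.8% and 14.4% lower. The lower counts without BDNF and at 24 h were close to those shares. Cdkn1c, the CDK inhibitor p57, was higher in KO than in WT dishes at all 3 times (0.99, 0.93 and 0.88), as was the p53 target Ccng1 (0.57, 0.43 and 0.53). Cdkn1a, p21, was higher without BDNF (0.58) and at 48 h (0.42). Gadd45g (-0.57) and the INK4 inhibitor Cdkn2c (-0.50) were lower in KO dishes at 24 h. Of the 13 tested transcription regulators of the cycle, E2f8 fell in WT dishes (-0.43 at 24 h and -0.55 at 48 h), and Nfya, a subunit of the CCAAT-binding factor NF-Y, fell at 48 h in KO (-0.32) and WT dishes (-0.33). Mycn (-0.48, -0.34 and -0.57) and Nfya (-0.35, -0.40 and -0.34) were lower in KO than in WT dishes at basal, 24 h and 48 h.

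**Figure D5:**
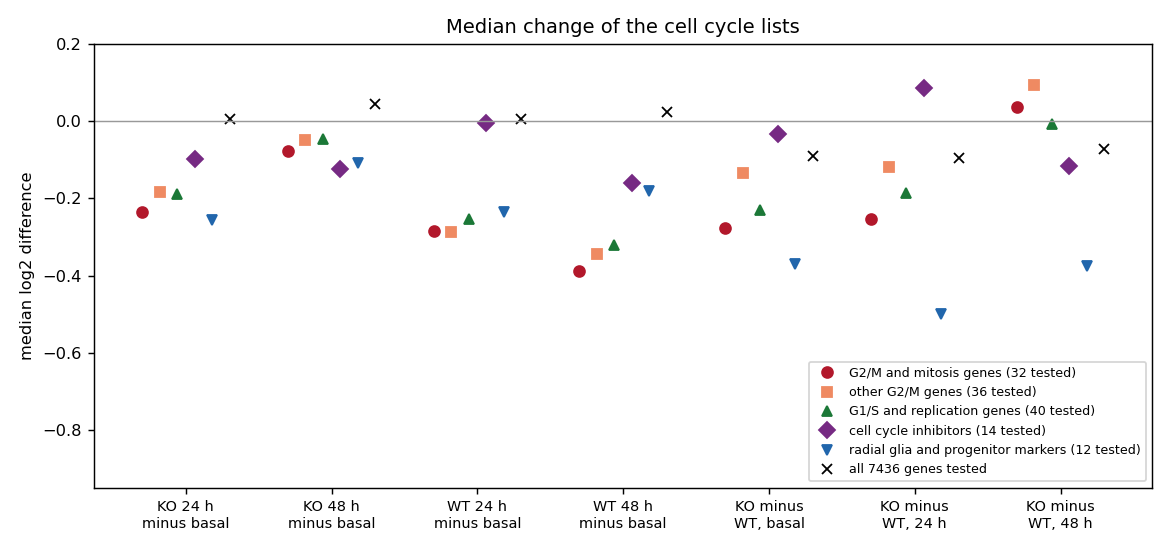
Median log2 difference of the tested genes of 5 lists and of all 7436 genes tested (crosses) in each comparison. The mitotic, other G2/M and G1/S lists lie below all genes in WT dishes at 48 h (-0.39, -0.34 and -0.32) and nearer to them in KO dishes at 48 h (-0.08, -0.05 and -0.05), where without division by the array median all 3 turn above 0 (0.17, 0.20 and 0.20).

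Markers of cell types were read in the same dishes. With BDNF, markers of dividing neural cells fell in part: of 12 radial glia genes, 5 fell at 24 h and 3 at 48 h in KO dishes, and 4 fell at each time in WT dishes, such as Prom1 (-0.68 in WT dishes at 48 h). Of all genes, 5.55% fell at 24 h and 9.47% at 48 h in KO dishes, and 6.4% and 15.7% in WT dishes. Of 4 tested intermediate progenitor genes, 3 fell at 48 h in each genotype, with Eomes at -0.41 in KO and -0.61 in WT dishes. Without division by the array median the radial glia medians at 48 h turned to 0.14 in KO and 0.13 in WT dishes, while those of the intermediate progenitor genes stayed below 0 (-0.16 in both). Of 11 neuronal genes, 4 rose and 1 fell at 48 h in KO dishes (median 0.10), and 6 rose and 1 fell in WT dishes (median 0.42), where 19.4% and 20.5% of all genes rose. The neurofilament gene Nefm differed by 1.45 in KO and 1.41 in WT dishes. Between KO and WT dishes, the neuronal genes that passed with the largest differences were all lower in KO dishes. Dcx was so at basal, 24 h and 48 h (-0.21, -0.25 and -0.25), and Eno2 and Snap25 at 24 h (-0.34 and -0.24). At 48 h Map2, Syt1 and Eno2 were lower too (-0.72, -0.51 and -0.28). All 3 tested embryonic globin genes fell at 48 h in both genotypes (medians -1.0 in KO and -0.99 in WT dishes). Between genotypes, the 4 intermediate progenitor genes were lower in KO dishes at all 3 times (medians -0.89, -0.94 and -0.73). The log2 of their summed signal was 3.23 to 3.56 in KO basal dishes and 4.16 to 4.65 in WT basal dishes, and 2.81 to 3.26 in KO 48 h dishes and 3.75 to 4.11 in WT 48 h dishes. Of the radial glia genes, 7, 7 and 5 were lower in KO dishes without BDNF, at 24 h and at 48 h, and 2, 2 and 3 were higher. Of all genes, 18.7%, 17.8% and 14.4% were lower in these comparisons and 9.2%, 8.43% and 9.68% higher. All 7 tested vascular and mesenchymal genes were higher in KO dishes at the 3 times (medians 0.97, 0.91 and 1.08), and the log2 of the summed signal of all 10 on the array was 7.83 to 8.12 in KO basal dishes and 7.09 to 7.23 in WT basal dishes. That sum was lower at 48 h in both genotypes, at 7.60 to 7.79 in KO and 6.63 to 6.87 in WT 48 h dishes, without overlap with basal dishes. Of the 7 genes, 2 fell in KO dishes at 48 h, and 3 fell and 1 rose in WT dishes, with the smooth muscle actin gene Acta2 at -0.63 in KO and -0.71 in WT dishes and the collagen gene Col1a2 at -0.24 in KO and -0.45 in WT dishes. Markers of microglia (10 genes), astrocytes (6) and the oligodendrocyte lineage (5) had summed log2 signals of 2.72 to 3.52, 5.04 to 5.91 and 1.01 to 2.08 over all dishes. The astrocyte sum was 5.68 to 5.91 in KO and 5.38 to 5.67 in WT basal dishes. At 48 h it was 5.52 to 5.72 in KO and 5.04 to 5.48 in WT dishes, while the 24 h ranges overlapped. Gja1 was higher in KO basal dishes (0.76), but Aldoc (-1.05) and Aldh1l1 (-0.61) were lower. Cd68 rose at 48 h (1.42 in KO and 1.87 in WT dishes), whereas Tyrobp (-0.75) and Csf1r (-0.36) fell in WT dishes. The part of these cell-type differences in the mitotic results was not tested.

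The 34 measured genes had 61 probe sets in all, and 45 of them passed the filter when every probe set was tested separately among 12236. This filter ranked probe sets and not genes, so all 34 genes kept a probe set. Cdc25c and Nek2, which the filter over genes had left out, are among them, and these counts do not cover the same genes as those above. In WT dishes at 48 h, 29 of the 45 fell, where 13.3% of all probe sets tested fell, and of the 11 dimmer probe sets of genes that also had a brighter one, 5 fell (Ccna2, Cdc20, Hmmr, Kif11 and Racgap1). In KO dishes at 48 h, 5 of the 45 fell, where 8.12% of all did, and 1 of the 11 dimmer ones did, that of Prc1 (-0.60, adjusted p = 0.0028), whose brighter probe set did not pass (-0.11). KO dishes were lower than WT dishes in 13 of 45 probe sets without BDNF, 10 at 24 h and none at 48 h, where 14.6%, 14.4% and 11.5% of all probe sets were lower.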

How the data were processed

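RNA from each of the 30 dishes was hybridised to 1 Affymetrix Mouse Genome 430A 2.0 array. The authors deposited MAS5 signal intensities, per the submitters' processing notes, and their median division, which the series' design text describes, had not been applied to the deposited intensity values. Each array was divided by its median, values were floored at 0.1 and log2 was taken. Of 22690 probe sets, 20393 had 1 gene symbol in the platform annotation, 691 several and 1606 none. Genes in the upper 60% by mean log2 signal were fitted together in limma 3.58.1 (R 4.3.3; 6 group means, trended variance), with Benjamini-Hochberg adjustment within each comparison and a threshold of 0.05. The steps were tested on simulated data. Groups came from the sample titles. Named were the members that passed in a comparison and, from each other list, up to 4 genes that passed with the largest differences; members that did not pass and are given with values were chosen after their values were seen. The members and lists were chosen with earlier results of these data known. Alternatives were other scalings, filters, probe-set rules, variance settings, covariates and single dishes left out. Leaving out 3 WT dishes together was chosen after seeing the data.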

Additional observations from a re-analysis of the deposited data

Results flagged for a closer look

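In 13 of 210 sets of 5 dishes, 1 dish lay far from the other 4 (Dixon's test at the 95% level, under which chance marks about 1 in 20 groups). Among KO dishes, the 24 h group had a high Top2a in dish 3 (3.06, next 2.94), a low Bub1b in dish 1 (0.70, next 1.04) and a low Kif2c in dish 4 (0.55, next 0.87). KO basal dish 5 was high in Aurka (1.57, next 1.11), and KO 48 h dish 2 was high in Nek2 (-0.50, next -0.89), a gene below the filter.

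WT dishes with 24 h of BDNF and WT basal dishes gave several of these. WT 24 h dish 2 was high in the median over the tested members (0.087), in Cdk1 (2.80, with the next dish at 2.31) and in Nusap1 (2.63, next 2.13). WT basal dish 4 was high in Top2a (4.01, next 3.59), Cdc25b (0.81, next 0.30) and Nusap1 (3.03, next 2.5). WT 48 h dish 1 was high in the median over the tested members (-0.168), and WT 48 h dish 2 was low in Mki67 (3.00, next 3.31). All values are log2 signals relative to the array median, except the medians over members, which are log2 differences from the WT basal mean.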

How the results depend on the processing

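Counts of members that passed are given for each comparison. With the values as deposited, none passed at 24 h against basal in KO or WT dishes, at 48 h against basal in WT dishes, or between genotypes in basal or 24 h dishes (0 each); at 48 h against basal in KO dishes 4 passed (3 higher, 1 lower, so the direction turned), between 48 h and 24 h 11 passed in KO dishes (10 higher) and 6, all higher, in WT dishes, also turned, and Ccna2 turned to 0.0124 in WT dishes at 48 h. Quantile normalization gave 11 for WT 24 h and 6 and 3 for the genotype difference in basal and 24 h dishes, and scaling to the 75th percentile gave 12, 5 and 4, with 2 for WT 48 h against 24 h. The mean of probe sets gave 2 each for KO 24 h, KO 48 h and WT 24 h, 1 for KO 48 h against 24 h and 5 for the genotypes at 24 h, and turned Incenp in WT 24 h dishes to 0.12. The upper 40% of genes gave 2 for KO 48 h, 2 for WT 24 h, 10 for WT 48 h, and 0 for WT 48 h against 24 h and for the genotypes at 48 h, where fewer members were tested; no filter gave 2 for KO 48 h and 6 for the genotypes in basal dishes. Fitting only the groups compared gave 3 for WT 24 h and 0 for WT 48 h against 24 h. Array weights gave 14, 4 and, for the genotypes at 48 h, 3. The Gapdh ratio in the fit gave 0 for KO 48 h against 24 h, 13 for WT 24 h, 2 for WT 48 h against 24 h and 21 for the genotypes in basal dishes. Leaving out the 3 high WT dishes gave 11 for KO 24 h, 7 for KO 48 h, 5 for the genotypes in basal dishes and 4 at 48 h. Leaving out 1 dish gave 3 to 8 for KO 24 h, 1 to 6 for KO 48 h, 2 to 3 for KO 48 h against 24 h, 0 to 20 for WT 24 h, 15 to 26 for WT 48 h, 0 to 3 for WT 48 h against 24 h, and 2 to 14, 3 to 10 and 1 to 3 for the genotypes in basal, 24 h and 48 h dishes, where the highest value at 48 h held 2 lower and 1 higher gene. Both differences in change between genotypes gave 0 under each of these. Apart from these constructions the cause was not tested.

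Replicate numbers were not used as pairs in the main fit. Same-numbered dishes had correlated deviations (r over 0.1) in 14 of 35 pairs, with r from -0.17 to 0.28. Between genotypes these were 2 of 5 pairs in basal, 3 of 5 in 24 h and 4 of 5 in 48 h dishes. Dishes with different numbers were not compared, so these values cannot exclude a pairing. With the replicate number as a block, 6, 5 and 3 members passed in KO dishes (24 h, 48 h, 48 h against 24 h), 8, 23 and 1 in WT dishes, and 11, 9 and 2 between genotypes in basal, 24 h and 48 h dishes. A single pool per genotype, and signals from probe sets that may be dim, limit the precision.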
